A study of Homo sapiens with 4 samples.

Results

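The 10 genes described here are the glypicans GPC1 to GPC6 and the syndecans SDC1 to SDC4, which are all the members of both families in the human genome. They were taken by their NCBI Gene IDs from the 18882 gene IDs of the RNA-Seq tables, and all 10 were listed. BT-474 is an established luminal B-like cell line of human breast cancer. RNA-Seq compared 2 control libraries with 2 libraries of a derived line, called NRP-1 cells here. Control cells are labelled wild-type. NRP-1 cells carry a plasmid that overexpresses neuropilin-1 (NRP-1), were stably transfected and were selected with Geneticin. The control libraries are not labelled as empty-vector cells, so plasmid, selection, clone and NRP-1 cannot be told apart in the comparison. Both groups were grown in RPMI-1640 with serum, and the labels do not say whether the libraries of a group came from separate cultures. P-values then measure only the spread between these libraries, which may be technical.

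Glypicans and syndecans are the main families of cell surface heparan sulfate proteoglycans. Glypicans are held in the membrane by a glycosylphosphatidylinositol (GPI) anchor, while syndecans span it and carry a short cytoplasmic tail that binds PDZ proteins and the cytoskeleton. Their heparan sulfate chains bind growth factors, Wnt and hedgehog ligands and matrix proteins, and they act as co-receptors or as stores of ligand. In breast epithelium syndecan-1 is the typical syndecan of the cell surface. Neuropilin-1 is itself a co-receptor for heparin-binding forms of VEGF and for semaphorins.

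The sequences that bear on the member with the largest change, GPC6, are given first. The study's qPCR primers for GPC6 are shown because they span a splice junction of GPC6, so the printed bases come from spliced RNA rather than from the gene's intron. On the GENCODE 29 transcript of 6467 bases and 9 exons they enclose 56 bases, positions 1888 to 1943 from the transcript's 5′ end. The capitals in the forward primer mark the 3 bases that lie past the junction of exon 7 with exon 8, and the reverse primer lies in exon 8.
GPC6 forward primer: gggcacagcaaagccagATA
GPC6 reverse primer: tggttggtgagcccatcat

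The 250 bases upstream of the RefSeq start were compared among the members because GPC6 was the member called and its upstream sequence differed most from the others in base composition. RefSeq windows (GRCh38.p14) were at hand for 8 of the 10 members, all but GPC3 and SDC2. The motifs searched on both strands were the GC box (GGGCGG, or CCGCCC on the other strand), TATAAA (or TTTATA) and the E-box CACGTG, and none of these overlaps another. GPC6 at chr13:93226557-93226806 (plus strand) and, for comparison, GPC2 at chr7:100177382-100177631 (minus strand) and GPC4 at chrX:133415490-133415739 (minus strand) are printed 5′ to 3′, with the GC boxes and the TATAAA match in capitals.
GPC6 upstream: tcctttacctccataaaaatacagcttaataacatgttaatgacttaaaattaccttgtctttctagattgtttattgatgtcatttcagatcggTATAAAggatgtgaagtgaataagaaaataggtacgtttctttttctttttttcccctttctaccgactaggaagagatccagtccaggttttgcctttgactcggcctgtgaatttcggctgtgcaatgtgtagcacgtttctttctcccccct
GPC2 upstream: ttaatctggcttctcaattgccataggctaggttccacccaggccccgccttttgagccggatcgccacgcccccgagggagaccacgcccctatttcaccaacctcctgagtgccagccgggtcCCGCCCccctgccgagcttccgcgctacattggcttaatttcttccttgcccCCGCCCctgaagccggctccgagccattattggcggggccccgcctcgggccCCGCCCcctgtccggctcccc
GPC4 upstream: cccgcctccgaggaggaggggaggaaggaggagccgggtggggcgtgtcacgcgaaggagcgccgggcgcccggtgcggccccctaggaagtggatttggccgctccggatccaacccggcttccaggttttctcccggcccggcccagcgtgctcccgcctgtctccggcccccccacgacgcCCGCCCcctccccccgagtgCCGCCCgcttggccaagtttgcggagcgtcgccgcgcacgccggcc

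The GPC6 window had 37.6% GC and 6 CpG dinucleotides, against a median of 58.0% and 11 over 35116 RefSeq windows of the same length. It held 0 GC boxes and 1 TATAAA, whose first base lay 155 bases before the start. The other 7 members with a window were richer in GC, from 62.4% in GPC5 to 84.0% in GPC1, and each held from 1 GC box (SDC1) to 8 (SDC4). Across all windows 42.6% held a GC box, 10.7% a TATAAA and 6.34% the E-box, which none of the 8 members held. GPC5 held the other TATAAA, 242 bases before its start. These matches describe letters only, and factor binding was not measured.

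The deposited values were, per gene and library, an RSEM expected count and an FPKM, a fragment count scaled by transcript length and by the mapped fragments of the library. Expected counts summed to between 8243595 and 8448926 per library. The comparison used the quasi-likelihood test of edgeR on 14298 genes left after low counts were filtered out, and a change was called at an adjusted p under 0.05 (Benjamini-Hochberg). NRP1, the overexpressed gene, had 7 and 8 reads in control and 103 and 62 reads in NRP-1 cells. All 9 luminal markers looked at, among them KRT8, EPCAM and ERBB2, were listed, with summed FPKM from 4480 to 5540. The endothelial list summed to at most 2.1 FPKM with TEK at 0. The leukocyte list summed to between 42.1 and 47.6 FPKM, nearly all of it LYZ, with PTPRC from 0.73 to 1.38 FPKM and CD3E and CD14 at 0, and its part in the results was not tested. The fibroblast or mesenchymal list had 5 of 10 genes listed, with DCN, PDGFRA, PDGFRB, FAP and THY1 at 0, and summed to 39.2 and 37.7 FPKM in control and 50.7 and 35.1 in NRP-1 cells. These are bulk samples, so a change in the number of cells that express a gene and a change of RNA per cell cannot be told apart.

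In these cells the family RNA was dominated by syndecans. By mean FPKM over the 4 libraries, SDC1 (118) was followed by SDC4 (63.1), GPC1 (17.4), GPC4 (8.51), SDC2 (6.97), SDC3 (5.54), GPC2 (5.20), GPC3 (0.888), GPC6 (0.320) and GPC5 (0.060). The ranges of the 4 libraries did not overlap between SDC1 and SDC4, SDC4 and GPC1, GPC1 and GPC4, or GPC2 and GPC3. They did overlap between GPC4 and SDC2, SDC2 and SDC3, SDC3 and GPC2, GPC3 and GPC6, and GPC6 and GPC5, so the order within those pairs is not larger than the spread. Syndecan FPKM summed to 199 ± 4.15 in control and 187 ± 35.7 in NRP-1 cells (SD, n = 2 each), and glypican FPKM to 31.3 ± 1.41 and 33.4 ± 0.474 (SD, n = 2 each).

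**Figure D1:**
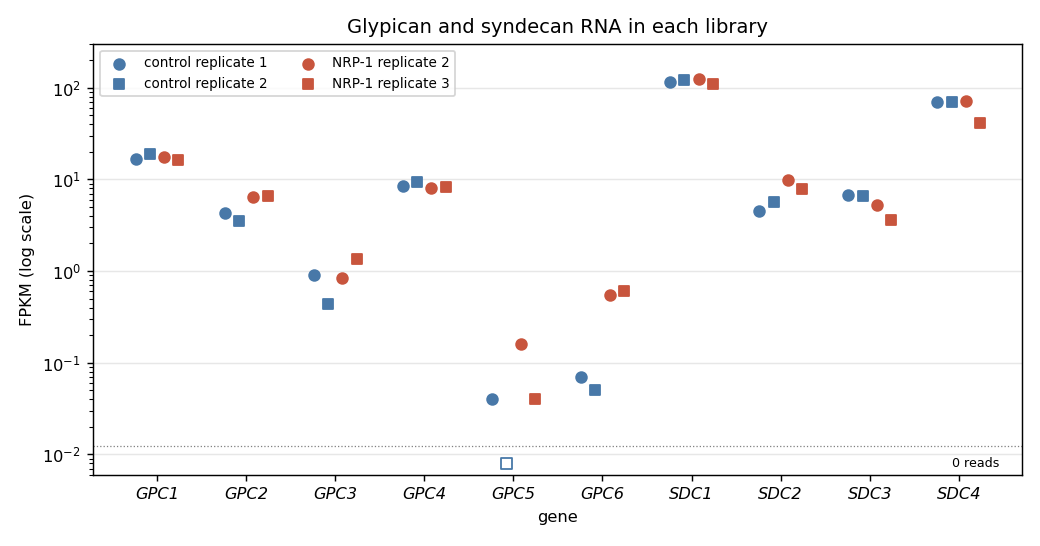
FPKM of the 6 glypicans and 4 syndecans on a log axis, 1 point per library, with control libraries in blue and NRP-1 libraries in red. SDC1 and SDC4 lie highest, GPC6 lies at 0.05 to 0.07 FPKM in control and 0.55 to 0.61 in NRP-1 cells, and the open symbol at the bottom is GPC5 in control replicate 2, where it had 0 reads.

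The filter on low counts left 9 of the 10 members, and 1 of the 9, GPC6, rose in NRP-1 cells while 0 fell. GPC6 passed that filter only through the NRP-1 libraries, so it had to differ to be tested, and the count is a description. Among all 14298 tested genes, 1.09% were called, 0.413% higher and 0.678% lower. At an unadjusted p under 0.05 edgeR gave 3 members higher (GPC2, GPC6 and SDC2) and 1 lower (SDC3), where the shares of all tested genes were 10.8% and 12.1%, or 22.9% in either direction. TMM-normalised read counts per library size (CPM) did not overlap between the groups in 3 members that were higher (GPC2, GPC6, SDC2) and 2 that were lower (GPC4, SDC3), beside 27.9% and 28.3% of all tested genes, or 56.2% in either direction. The median log2 fold change of the 9 members was -0.05, with 4 above 0, beside a median of 0.02 over all tested genes, of which 51.8% were above 0.

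GPC6 encodes a glypican known for its part in Wnt5a signalling and in hedgehog-driven growth of the skeleton. It had 4 and 3 reads in control replicates 1 and 2, against 33 and 37 reads in NRP-1 replicates 2 and 3. Both NRP-1 libraries lay far above both control libraries, and the replicates of each group were close to each other. Its FPKM was 0.06 ± 0.0141 in control and 0.58 ± 0.0424 in NRP-1 cells (SD, n = 2 each). The log2 fold change was 3.22 with a standard error of 0.45, a 9.31-fold higher level (adjusted p = 0.0468, Benjamini-Hochberg, by the quasi-likelihood test of edgeR). Pooled over the libraries of each group, 7 reads stood against 70, a ratio of 9.83 with an exact 95% interval from 4.53 to 25.3 that covers counting error only. Even at its higher level GPC6 was among the least abundant members, below GPC2, GPC4 and GPC1 in every library. The study listed GPC6 among its upregulated genes from these same libraries, so the direction here is not independent evidence. It also shortlisted GPC6 for qPCR, but of the shortlisted upregulated genes its text reported a qPCR rise only for TNC. The call was lost without a filter on low counts (adjusted p = 0.109, edgeR), and without control replicate 1 (adjusted p = 0.805) or control replicate 2 (adjusted p = 0.569), where edgeR called 0 genes in all. DESeq2 also called GPC6 and no other member (adjusted p = 0.00584), with 6.80% of the genes to which it gave an adjusted p called. It was run on the same libraries and the same filtered genes, which GPC6 entered only through the NRP-1 libraries, so this call is not a separate check.

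GPC2, the glypican best known from developing neurons and neuroblastoma, had 96 and 79 reads in control and 143 and 147 reads in NRP-1 cells. Both NRP-1 libraries were above both controls, at 6.45 ± 0.0919 FPKM against 3.96 ± 0.559 (SD, n = 2 each). By CPM, 27.9% of all tested genes lay higher without overlap. The log2 fold change was 0.67 with a standard error of 0.21, which did not pass the threshold (adjusted p = 0.140, edgeR).

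GPC1 and GPC4 were the most abundant glypicans. GPC1, a co-receptor for FGF2 that is raised in several carcinomas, had 508 and 586 reads in control and 551 and 507 reads in NRP-1 cells, and the groups overlapped. Its log2 fold change was -0.11 with a standard error of 0.14 (adjusted p = 0.685, edgeR). GPC4, which with GPC6 is known as a synapse-promoting factor secreted by astrocytes, had 258 and 288 reads in control and 253 and 263 reads in NRP-1 cells. Its FPKM was 8.82 ± 0.636 in control and 8.20 ± 0.184 in NRP-1 cells (SD, n = 2 each), with a log2 fold change of -0.14 and a standard error of 0.15 (adjusted p = 0.625, edgeR). Its reads overlapped between the groups, and its normalised values lay apart by a small margin. For both genes the log2 fold change was smaller than its standard error.

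GPC3 and GPC5 form the other branch of the glypican family. GPC3, an inhibitor of hedgehog signalling and an antigen of liver cancer, had 17 and 8 reads in control and 16 and 27 reads in NRP-1 cells, and the groups overlapped. The log2 fold change was 0.72 with a standard error of 0.53 (adjusted p = 0.467, edgeR), and it ranged from 0.27 without control replicate 2 to 1.36 without control replicate 1. GPC5, known to promote hedgehog signalling, had 1 and 0 reads in control and 4 and 1 reads in NRP-1 cells. It did not pass the filter and was not tested. The pooled counts of 1 and 5 gave a ratio of 4.91 with an exact 95% interval from 0.55 to 232, so no difference was detectable at this depth.

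SDC1, which binds integrins, collagens and growth factors at the epithelial surface, was the most abundant member. It had 3113 and 3271 reads in control and 3421 and 2989 reads in NRP-1 cells. The highest and the lowest value both came from NRP-1 libraries, and the group means of 118 ± 3.34 and 117 ± 11.6 FPKM (SD, n = 2 each) were within that spread. The log2 fold change was -0.05 with a standard error of 0.13 (adjusted p = 0.840, edgeR), and it turned to 0.04 without NRP-1 replicate 3.

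SDC4, the syndecan of focal adhesions, had 1498 and 1515 reads in control and 1586 and 917 reads in NRP-1 cells. The control libraries were nearly equal, NRP-1 replicate 2 was slightly above them and NRP-1 replicate 3 was far below. FPKM was 69.4 ± 0.191 in control and 56.8 ± 21.7 in NRP-1 cells (SD, n = 2 each), a log2 fold change of -0.33 with a standard error of 0.25 (adjusted p = 0.488, edgeR). Its value was 0.02 when NRP-1 replicate 3 was left out and -0.79 when replicate 2 was, so the direction rested on NRP-1 replicate 3.

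SDC2 and SDC3 differed between the groups in opposite directions, and neither passed the threshold. SDC2, the syndecan typical of mesenchymal cells, had 132 and 166 reads in control and 286 and 234 reads in NRP-1 cells, or 5.13 ± 0.806 against 8.82 ± 1.29 FPKM (SD, n = 2 each). Its log2 fold change was 0.74 with a standard error of 0.20 (adjusted p = 0.109, edgeR). SDC3, the syndecan of nerve and muscle, had 289 and 280 reads in control and 228 and 157 reads in NRP-1 cells, or 6.65 ± 0.184 against 4.43 ± 1.17 FPKM (SD, n = 2 each). Its log2 fold change was -0.62 with a standard error of 0.22 (adjusted p = 0.169, edgeR). In both genes the groups did not overlap, as in 56.2% of all tested genes by CPM. VIM, a mesenchymal marker named beside SDC2 after its values were seen, had 69 and 48 reads in control and 371 and 147 reads in NRP-1 cells (log2 fold change 2.08, adjusted p = 0.0821, edgeR). The paper separately reported a significant rise of vimentin expression in NRP-1 cells by qPCR. COL1A1, from the same marker list, went the other way, with 1739 and 1740 reads against 1513 and 1357 (log2 fold change -0.34, adjusted p = 0.177, edgeR). The part of either gene in the SDC2 values was not tested.

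**Figure D2:**
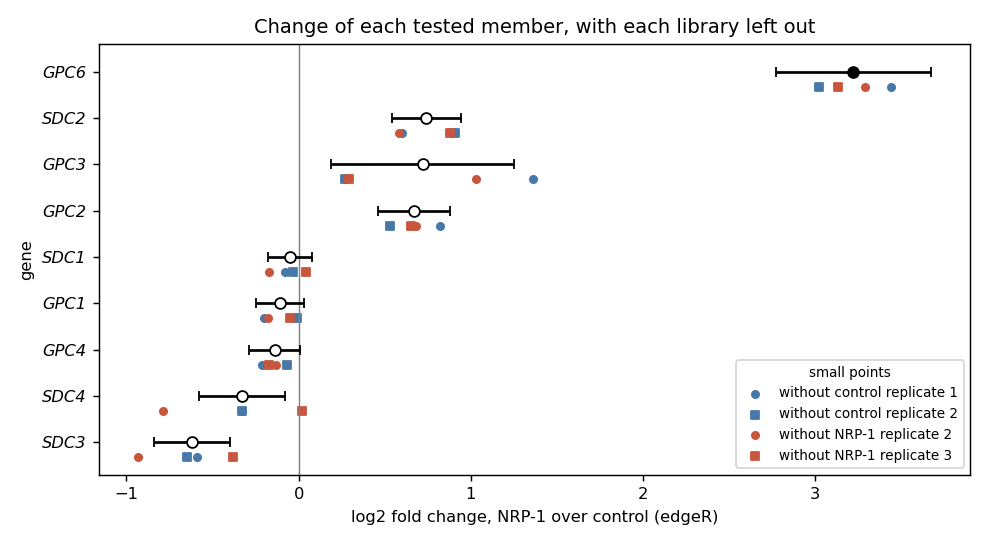
Log2 fold change of the 9 tested members, NRP-1 over control, with bars of 1 standard error on each side (large points, filled where the adjusted p was under 0.05) and the value with each library left out (small points). GPC6 stays between 3.02 and 3.44, while the points of SDC1 and SDC4 fall on both sides of 0.

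The make-up of each family was read as the share of every member in the family's FPKM. GPC1 held 54.7% and 58.8% of glypican FPKM in control and 52.5% and 49.0% in NRP-1 cells. GPC2 held 14.3% and 11.0% in control and 18.9% and 19.7% in NRP-1 cells, and GPC4 held 27.6% and 28.7% against 23.9% and 25.2%. GPC6 held 0.231% and 0.155% in control and 1.63% and 1.85% in NRP-1 cells. So the share of GPC1 and GPC4 was lower and that of GPC2 and GPC6 higher in both NRP-1 libraries, while GPC3 (2.97% and 1.36% against 2.49% and 4.15%) overlapped. Shares of a sum depend on each other, and the CPM of 56.2% of all tested genes did not overlap between the groups. The glypican sum had a log2 ratio of 0.09 (p = 0.33, exact two-sided permutation test, the smallest p that 2 libraries against 2 allow). On CPM the ratio was 0.04 and the groups overlapped (p = 0.67, exact two-sided permutation test).

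Among syndecans SDC1 held 59.0% and 59.6% in control and 59.0% and 67.3% in NRP-1 cells, and SDC4 held 35.3% and 34.4% against 34.0% and 25.6%. The share of SDC2 was 2.32% and 2.82% in control and 4.58% and 4.88% in NRP-1 cells, and that of SDC3 was 3.45% and 3.22% against 2.48% and 2.23%. The shares of SDC2, SDC3 and SDC4 did not overlap between the groups, that of SDC4 by a small margin in NRP-1 replicate 2, while its FPKM did overlap. Syndecan shares also depend on each other, and the CPM of 56.2% of all tested genes did not overlap between the groups either. The syndecan sum had a log2 ratio of -0.09 (p = 1.0, exact two-sided permutation test), which was 0.09 when NRP-1 replicate 3 was left out and -0.30 when replicate 2 was.

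**Figure D3:**
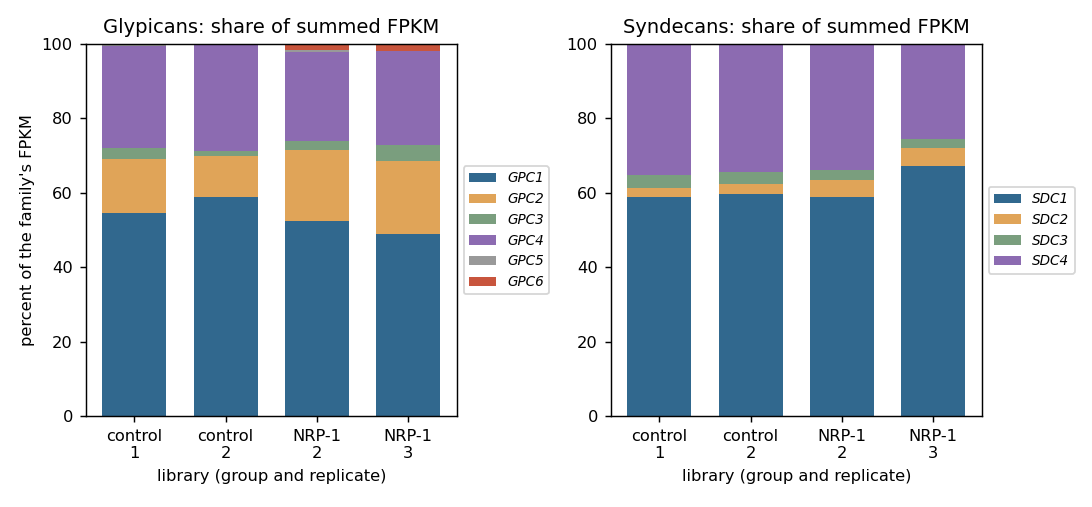
Share of each member in the summed FPKM of its family, in percent, 1 bar per library. GPC1 and GPC4 make up most of the glypican bars, GPC6 is visible only in the NRP-1 libraries (1.63% and 1.85%), and SDC4 takes 25.6% in NRP-1 replicate 3 against 34.0% to 35.3% in the other libraries.

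Counts of genes near or opposite the members were read for overlap, since the labels do not describe the kit as stranded. GPC1-AS1, annotated antisense to GPC1, had 283 and 346 reads in control and 517 and 311 reads in NRP-1 cells, and its log2 fold change was 0.34 (adjusted p = 0.488, edgeR). In GENCODE 29 it shares 0 of its 2017 exon bases with the exons of GPC1. The antisense genes of GPC6, GPC6-AS1 and GPC6-AS2, were not listed in any of the 4 libraries. In the RefSeq order of genes the 3 listed neighbours of GPC6 on one side were MIR17HG (log2 fold change 0.29, adjusted p = 0.640, edgeR), GPC5 and GPC5-AS1. On the other side lay DCT with 0, 0, 1 and 0 reads, TGDS (log2 fold change -0.27, adjusted p = 0.465, edgeR) and GPR180 (log2 fold change -0.05, adjusted p = 0.941, edgeR). None of the 3 tested neighbours passed the threshold.

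The genes whose pattern was most like that of GPC6 were found by the Euclidean distance between log2 CPM values centred on each gene's mean, over the 4 libraries. The 5 nearest were BASP1 (distance 0.142), CLCA2 (0.319), GDPD3 (0.475), CTTNBP2 (0.525) and LRRK2 (0.549), where the median distance of all tested genes was 2.73. This distance largely follows the fold change, so genes that differed little between the groups had to lie far away. The study listed BASP1, CLCA2, CTTNBP2 and LRRK2 as upregulated from these same libraries. Control reads were few in GDPD3 (1 and 1), CTTNBP2 (1 and 2) and LRRK2 (4 and 1). Like GPC6, these genes passed the filter on low counts only through the NRP-1 libraries. BASP1 had 75 and 66 reads in control and 488 and 479 reads in NRP-1 cells, and CLCA2 had 19 and 19 against 152 and 184. NRP1 itself came at rank 12, with a distance of 0.767. With a prior count of 0.5 in place of 2, 3 of the 5 genes (BASP1, CLCA2 and GDPD3) were again among the nearest 5, and NRP1 came at rank 5 with a distance of 0.757.

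The enzymes, ligands and partners of the families were read from 14 lists of 185 genes, of which 121 were tested. Of these 4 were called higher (3.31%, beside 0.413% of all tested genes) and 0 lower, and the median log2 fold change was -0.11. The split depended on the test and the libraries, with 5 higher and 2 lower in DESeq2, and 13 higher and 26 lower in edgeR when NRP-1 replicate 2 was left out. The 4 were SLC35D1, FGFR4, TNC and NRP1. TNC was listed by the study from these same libraries and NRP1 is the overexpressed gene, so neither is independent evidence. NRP1 also passed the filter on low counts only through the NRP-1 libraries, so it had to differ to be tested. At an unadjusted p under 0.05 edgeR gave 12 of the 121 higher and 15 lower, close to the 10.8% and 12.1% of all tested genes. Since 1.09% of all tested genes were called at the adjusted threshold, 0 calls in a short list do not set that list apart.

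Heparan sulfate chains start from a linkage tetrasaccharide on the core protein. All 7 linkage enzymes had a log2 fold change below 0, with a median of -0.21, and 0 were called. Over all tested genes the median was 0.02, with 51.8% above 0. Some of the linkage enzymes lay within their standard error of 0, such as B3GALT6 (-0.13, standard error 0.19), so a joint fall was not shown. XYLT2, a xylosyltransferase that starts the chain, had 2664 and 2604 reads in control and 1701 and 1686 reads in NRP-1 cells (log2 fold change -0.70, standard error 0.11, adjusted p = 0.0557, edgeR). Its groups did not overlap, as in 56.2% of all tested genes by CPM, and its adjusted p did not pass the threshold. XYLT1 had 24 and 15 reads against 8 and 5 (log2 fold change -1.63, adjusted p = 0.144, edgeR). It passed the filter on low counts only through the control libraries, so it had to differ to be tested. FAM20B, the xylose kinase, was at -0.02.

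Chain polymerisation and modification showed no called gene. The 4 tested polymerase genes had a median log2 fold change of -0.15, from -0.33 for EXT1 (adjusted p = 0.275, edgeR) to 0.17 for EXTL2, with EXT2 at -0.12. The 10 tested sulfotransferases and epimerase had a median of 0.23, 6 of them above 0, beside 51.8% of all tested genes. NDST1, the N-deacetylase and N-sulfotransferase with the highest FPKM of the list, was at 0.30 (adjusted p = 0.341, edgeR), HS3ST3B1 at 0.94 with a standard error of 0.78 (adjusted p = 0.521, edgeR) and GLCE, the epimerase, at -0.26 (adjusted p = 0.378, edgeR). SULF2, which removes 6-O-sulfates outside the cell, had 502 and 397 reads in control and 246 and 329 reads in NRP-1 cells (log2 fold change -0.70, adjusted p = 0.125, edgeR). HPSE, the heparanase that cuts the chains, was at 0.32 (adjusted p = 0.511, edgeR).

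Among the 10 genes that supply sugar and sulfate donors 1 was called higher, beside 0.413% of all tested genes. SLC35D1, a transporter of UDP-sugars into the endoplasmic reticulum, had 117 and 138 reads in control and 350 and 333 reads in NRP-1 cells. This was 2.35 ± 0.262 against 6.20 ± 0.255 FPKM (SD, n = 2 each), a log2 fold change of 1.36 with a standard error of 0.17 (adjusted p = 0.0440, edgeR). UGP2, the most abundant of this list, was at -0.12, and the sulfate donor transporter SLC35B2 at -0.18 (adjusted p = 0.454, edgeR).

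Chondroitin sulfate, which syndecans may also carry, gave 0 called genes among 13 tested, with a median log2 fold change of -0.12. CHPF was at -0.44 (adjusted p = 0.125, edgeR), CSGALNACT1 at 0.93 (adjusted p = 0.292, edgeR) and CHST11 at -0.75 (adjusted p = 0.275, edgeR). CSGALNACT1 passed the filter on low counts only through the NRP-1 libraries, so it had to differ to be tested. Among 11 tested other proteoglycans 9 were below 0, the median was -0.51 and 0 were called. Over all tested genes the median was 0.02, with 51.8% above 0. VCAN, the large matrix proteoglycan versican, had 31 and 27 reads in control and 91 and 70 reads in NRP-1 cells (log2 fold change 1.41, adjusted p = 0.0728, edgeR). FMOD, a small matrix proteoglycan, had 2336 and 2834 reads against 2344 and 1090 (log2 fold change -0.65, adjusted p = 0.322, edgeR). Its CPM was 288 and 345 in control and 276 and 128 in NRP-1 cells, so NRP-1 replicate 2 lay slightly below the controls and replicate 3 far below them. SPOCK1 was at -0.81 (adjusted p = 0.487, edgeR).

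Furin-like convertases cut glypican core proteins and metalloproteases shed syndecans, and 0 of 8 tested genes of this list were called. ADAM10 was at a log2 fold change of 0.04, PCSK5 at 0.22 and FURIN at -0.96, with 130 and 101 reads in control and 78 and 46 reads in NRP-1 cells (adjusted p = 0.158, edgeR). Among the 12 syndecan cytoplasmic partners 0 were called and the median was -0.04. Cortactin (CTTN) was at -0.22 (adjusted p = 0.352, edgeR), ezrin (EZR) at 0.33 (adjusted p = 0.342, edgeR) and SDCBP2, a relative of syntenin, at -1.53 with a standard error of 1.01 (adjusted p = 0.415, edgeR).

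Of the signalling systems that the chains serve, the FGF list held 1 called gene among 5 tested, beside 1.09% of all tested genes. FGFR4, an FGF receptor tyrosine kinase, had 230 and 331 reads in control and 767 and 994 reads in NRP-1 cells, or 11.2 ± 3.01 against 34.5 ± 5.95 FPKM (SD, n = 2 each). It was 3.01-fold higher, a log2 fold change of 1.59 with a standard error of 0.22 (adjusted p = 0.0452, edgeR). FGF2 was at -0.39 (adjusted p = 0.645, edgeR).

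The hedgehog list had 6 tested genes and the Wnt list 16, with 0 called in either and medians of -0.20 and -0.06. PTCH1, the hedgehog receptor and target, had 19 and 10 reads in control and 5 and 1 reads in NRP-1 cells (log2 fold change -2.29, adjusted p = 0.158, edgeR), SMO was at 0.04 and GLI3 at 0.63 (adjusted p = 0.158, edgeR). WNT5B, a Wnt ligand that the study listed from these libraries, had 54 and 58 reads against 13 and 4 (log2 fold change -2.76, adjusted p = 0.0640, edgeR). PTCH1 passed the filter on low counts only through the control libraries, so it had to differ to be tested. In WNT5B the control libraries also carried the gene past the filter, so both values are a description. LRP5 was at -0.06 and FZD4 at 0.63 (adjusted p = 0.0924, edgeR).

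Among 14 tested other heparin-binding ligands and receptors 2 were called, beside 1.09% of all tested genes. They were NRP1 (log2 fold change 3.38, standard error 0.42, adjusted p = 0.0440, edgeR) and the matrix protein tenascin C, TNC (3.53, standard error 0.41, adjusted p = 0.0435, edgeR). NRP1 was tested only because its reads were high in the NRP-1 libraries. VEGFA had 4999 and 4867 reads in control and 2524 and 892 reads in NRP-1 cells (log2 fold change -1.59, adjusted p = 0.117, edgeR), with the NRP-1 libraries both lower and far from each other. Midkine (MDK), the most abundant of this list, was at 575 FPKM in control and 576 in NRP-1 cells. Among the 3 tested synaptic receptors for glypicans 0 were called, with PTPRF at -0.33 (adjusted p = 0.363, edgeR) and NRXN3 at 0.09. The calls of SLC35D1, FGFR4, TNC and NRP1 were lost in limma on log2(FPKM + 1), in edgeR without a filter on low counts, and without either control library, where 0 of the listed genes were called.

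**Figure D4:**
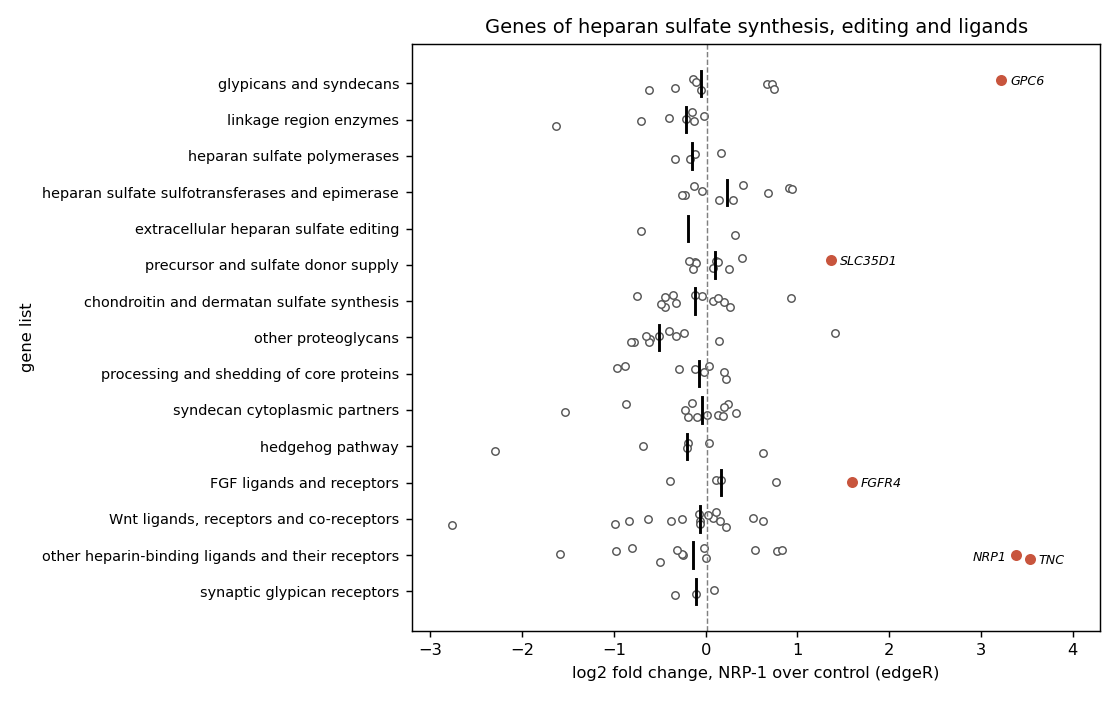
Log2 fold change, NRP-1 over control, of each tested gene in the family and in the 14 lists, with a black bar at each list's median and red points for genes with an adjusted p under 0.05. The dashed line is the median of all tested genes (0.02), and the 5 red points are GPC6, SLC35D1, FGFR4, NRP1 and TNC.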

How the data were processed

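RNA-Seq was carried out on 2 control and 2 BT-474 NRP-1 libraries. Per the labels, the authors used bcl2fastq 2.16, HISAT2 2.0.1, Bowtie2 2.2.5 and RSEM, and the labels name both GRCh38 and hg19 without a role, so no coordinates of the files are given. The authors deposited expected counts per gene, not normalized and estimated by RSEM, and 32.8% of nonzero values held a fraction. The members' 40 values, 1 of them 0, were whole as deposited to 2 decimals. They also deposited FPKM values, normalized for length and mapped reads. A table of the authors' own comparison was not used.

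Of the gene IDs, 99.4% were matched to RefSeq symbols (GRCh38.p14). A gene not listed in a library was taken as 0 reads. Expected counts were rounded, filtered (filterByExpr), TMM-normalized (factors from 0.986 to 1.01) and compared by edgeR 4.0.16 (R 4.3.3) in a model with a group term alone. Standard errors are the absolute log2 fold change over the square root of F. Totals from 8243595 to 8448926 per library set the counting precision. The replicates of a group differed by more than sampling noise (chi-square per degree of freedom 3.33 in control and 22.0 in NRP-1), and the biological coefficient of variation was 0.064 in control and 0.225 in NRP-1.

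Alternatives were DESeq2 1.42.0, DESeq2's size factors or library sizes in edgeR, no filter, limma 3.58.1 on the log2 of FPKM plus 1 or plus 0.1 where the mean FPKM was at least 0.5, and leaving out each library. On simulated data for this comparison edgeR found 92.9% of 197 genes given a log2 change of 2, in a table of 14108 genes, with 26 false calls. The simulation gave both groups the same dispersion per gene and changed no gene of the lowest levels. The real groups differed in spread (0.064 in control and 0.225 in NRP-1), so these rates need not hold for the real libraries.

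Named genes were the members and NRP1, and from each list the called genes, the gene of highest mean FPKM and those of highest and lowest log2 fold change. The 5 genes most like GPC6 and its 3 listed neighbours on each side were added. VIM, COL1A1 and the antisense genes were named after their values were seen. The members and the lists were chosen with earlier results of these data known.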

Additional observations from a re-analysis of the deposited data

How the results depend on the processing

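With 2 libraries per group, low reads limit GPC3, GPC5 and GPC6 most, and a change that missed the threshold is not shown to be absent. Over the settings other than leaving out a library, 51 of 52 comparisons of single members with edgeR kept direction and side of the threshold. The exception was GPC6 without a filter (log2 fold change 3.22, adjusted p = 0.109). Members called numbered 0 without a filter and in limma with either pseudocount, where GPC6 was under the mean FPKM of 0.5 and was not tested, and 1 in DESeq2. Called genes of the 14 lists numbered 0 without a filter and in limma with either pseudocount, and 7 in DESeq2, against 4. Over all genes edgeR called 156, DESeq2 953, limma 7 and 3 (pseudocounts 1 and 0.1), and edgeR without a filter 0 of 18837, where 3297 had an unadjusted p under 0.05. The cause was not tested.

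With a library left out, the lone library of an arm was assumed to vary like the other arm. Counts called then ranged from 0 to 5 for members, from 0 to 39 for the lists and from 0 to 5402 for all genes. They were 0 without either control library, and were high without an NRP-1 library (for members 5 when NRP-1 replicate 2 was left out and 3 when replicate 3 was), where the spread comes from the control pair alone. Log2 fold changes ranged from -0.20 to -0.01 for GPC1, 0.53 to 0.82 for GPC2, 0.27 to 1.36 for GPC3, -0.21 to -0.07 for GPC4, 3.02 to 3.44 for GPC6, -0.17 to 0.04 for SDC1, 0.58 to 0.91 for SDC2, -0.93 to -0.38 for SDC3, -0.79 to 0.02 for SDC4 and 2.95 to 3.70 for NRP1. SDC1 (0.04) and SDC4 (0.02) changed sign without NRP-1 replicate 3, as did the summed syndecan log2 ratio (-0.30 to 0.09). The glypican ratio ranged from 0.05 to 0.14, and was 0.04 on CPM in place of FPKM. No paired analysis was possible because the groups share only 1 replicate number.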
